A study of Mus musculus with 20 samples.

Results

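Zonation of the liver lobule was examined through 9 genes of pericentral hepatocytes, the hepatocytes that lie around the central vein: *Glul*, *Oat*, *Cyp2e1*, *Slc1a2*, *Rhbg*, *Lgr5*, *Axin2*, *Tbx3* and *Gulo*. They were chosen by symbol, and every probe whose RefSeq accession mapped to 1 of the 9 symbols was taken. The array held 12 such probes, of 41174 probes in all, and the 9 genes were among 12986 genes with a probe above the negative controls. All 12 member probes passed the rule for presence, a signal above the negative controls on 4 or more of 5 arrays of some group. *Glul*, *Slc1a2* and *Gulo* had 2 probes each, and for these genes the brighter probe stood for the gene.

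Livers came from male Muta™Mouse animals aged 25 weeks, 20 in all, with 4 groups of 5. Muta™Mouse is a transgenic strain that carries a bacterial lacZ reporter for counting mutations, and the controls carried it too. Benzo(a)pyrene (BaP), a polycyclic aromatic hydrocarbon that liver enzymes turn into a DNA-binding diol epoxide, was given in olive oil by oral gavage for 28 days at 25, 50 or 75 mg/kg/day. Control mice received olive oil by the same route, and all mice were killed 3 days after the last dose. RNA of each liver was hybridized once, in the red channel, against a universal mouse reference RNA in the green channel of a two-color array. Every value below is the log2 ratio of liver over that reference for 1 probe, and a fold change is the difference between the mean log2 ratio of an exposed group and that of the controls. The labels name lungs beside liver. Of 7 hepatocyte markers, 6 were above the negative controls and 1 was not on the array by symbol, while 3 of 6 lung epithelium markers (*Sftpb*, *Sftpc* and *Cldn18*) were not above the negative controls. The other 3 were, and their liver channel was well above background on 16 of 20 arrays for *Sftpa1*, 5 for *Scgb1a1* and 1 for *Ager*.

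In the lobule, blood runs from the portal tract to the central vein, and hepatocytes along that path divide the work. Pericentral hepatocytes detoxify drugs through cytochrome P450 enzymes and capture the ammonia that the periportal urea cycle has missed, by joining it to glutamate as glutamine. Their identity depends on Wnt ligands from the endothelium of the central vein, which stabilize beta-catenin so that it acts with TCF/LEF factors on target genes. R-spondins and their LGR receptors strengthen that signal and AXIN2 dampens it. BaP itself is a ligand of the aryl hydrocarbon receptor, a factor that is most active in pericentral cells.

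Promoter sequence is shown for 3 members to let the reader see where the letters of a TCF/LEF site occur before the expression values. RefSeq promoter windows were at hand for 5 of the 9 genes (*Glul*, *Oat*, *Cyp2e1*, *Slc1a2* and *Axin2*), and the 250 bases before the annotated start were searched on both strands for 4 forms of the TCF/LEF core, namely CTTTGAA and CTTTGAT along with CTTTGTA and CTTTGTT. *Cyp2e1* and *Slc1a2* held 1 match each, and *Glul*, *Oat* and *Axin2* held none. Of all 32851 windows of that length, 14.8% held a match. The *Cyp2e1* match began 135 bases before the start and read CTTTGAA, and this window also held the TATA box letters TATAAA on the gene's strand, 31 bases before the start, which 7.59% of all windows hold. The *Slc1a2* match lay on the reverse strand and read ATCAAAG, 207 bases before the start. The core letters of an aryl hydrocarbon receptor site, GCGTG, were in none of the 5 windows and in 28.2% of all. The *Glul* window was the richer in G and C of the 3 shown, at 64.8%, against 48.8% for *Cyp2e1* and 44.8% for *Slc1a2*. Such matches describe letters and not bound sites. The windows below are from GRCm38.p6, each 5′ to 3′ on the gene's strand, with the matched letters in capitals. They are chr7:140763569-140763818 (plus strand) for *Cyp2e1*, chr2:102706188-102706437 (plus strand) for *Slc1a2* and chr1:153899679-153899928 (plus strand) for *Glul*.
Cyp2e1: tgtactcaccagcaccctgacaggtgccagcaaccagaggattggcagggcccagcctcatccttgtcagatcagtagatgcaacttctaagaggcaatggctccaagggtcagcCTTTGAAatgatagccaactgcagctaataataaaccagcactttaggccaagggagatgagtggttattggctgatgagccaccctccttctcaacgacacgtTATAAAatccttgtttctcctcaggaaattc
Slc1a2: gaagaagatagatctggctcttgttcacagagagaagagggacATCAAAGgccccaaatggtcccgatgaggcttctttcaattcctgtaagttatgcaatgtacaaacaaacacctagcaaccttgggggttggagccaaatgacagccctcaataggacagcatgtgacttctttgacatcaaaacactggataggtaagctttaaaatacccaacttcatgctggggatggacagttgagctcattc
Glul: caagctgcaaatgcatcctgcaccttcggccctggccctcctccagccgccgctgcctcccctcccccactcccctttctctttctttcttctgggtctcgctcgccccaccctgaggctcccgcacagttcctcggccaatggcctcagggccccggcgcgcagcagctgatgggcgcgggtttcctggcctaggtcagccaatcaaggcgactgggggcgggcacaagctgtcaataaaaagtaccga

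Exposure to BaP changed none of the 12 probes by the threshold used, an adjusted p below 0.05 from limma over all 27346 probes with a fold change above 1.5. At 25 mg/kg/day 0 of 12 member probes were called, where 0% of all probes were. At 50 mg/kg/day the count was again 0 of 12, against 0% of all. At 75 mg/kg/day it was 0 of 12, against 0.135% of all (37 of 27346 probes, 36 of them higher). The smallest adjusted p among the members was 0.636, 0.628 and 0.348 at the 3 doses. An unadjusted p below 0.05 was found for 2, 3 and 3 of the 12 probes, all higher in exposed liver, where 4.18%, 3.75% and 6.52% of all probes were higher by that measure. Log2 fold changes were positive for 12, 10 and 9 of the 12 probes, with medians of 0.26, 0.30 and 0.27, while the median of all genes lay within 0.01 of 0 at each dose. The 95% interval stayed inside a 1.5-fold change in either direction for 3, 2 and 1 of the 12 probes, and for the others it also held larger changes. The p-values rest on the spread between arrays of a group, with a single array per mouse. That spread holds differences between array slides as well as between mice. In whole liver RNA a different number of pericentral cells and a different amount of RNA per cell cannot be told apart.

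**Figure D1:**
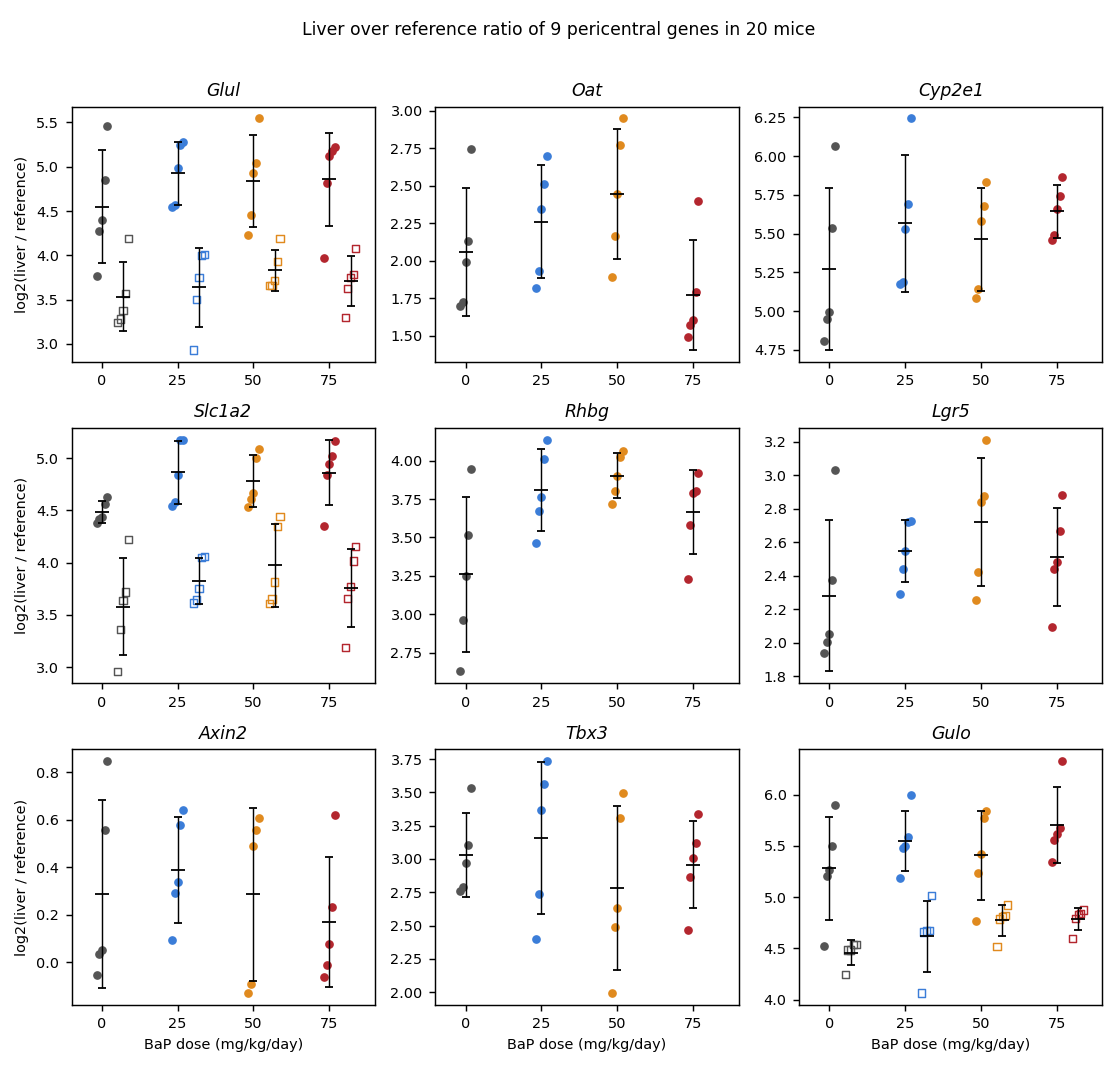
Log2 ratio of liver over reference (y axis) against BaP dose in mg/kg/day (x axis) for the 9 genes, 1 point per mouse, with bars for the mean and SD of 5 mice. Filled circles are the brighter probe and open squares the dimmer probe of *Glul*, *Slc1a2* and *Gulo*. Controls and exposed mice overlap in every panel but for the dimmer *Gulo* probe at 75 mg/kg/day.

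The ammonia and glutamine genes are described first. *Glul* encodes glutamine synthetase, which in liver is made almost solely by the hepatocytes next to the central vein. Its log2 ratio was 5.46, 3.77, 4.28, 4.40 and 4.85 in the controls. The lowest dose gave 4.55, 4.57, 4.99, 5.25 and 5.28, the middle dose 5.04, 4.23, 4.45, 4.93 and 5.55 and the highest dose 5.23, 5.12, 5.18, 3.97 and 4.81. A single exposed mouse, at 50 mg/kg/day, exceeded the highest control, and none lay below the lowest. The log2 fold changes were 0.38, 0.29 and 0.31 at the 3 doses (SE 0.30, adjusted p = 0.761, 0.884 and 0.734 from limma), and the interval at 75 mg/kg/day ran from -0.31 to 0.93. The *Glul* log2 ratio therefore varied more between arrays of a group (control SD 0.64, n = 5) than between group means. Array slide means held 71.8% of its variance over the 20 arrays. The controls at 3.77 and 4.28 were those on slide 6. The dimmer *Glul* probe had log2 fold changes of 0.11, 0.30 and 0.18. After the dose means were removed, the brighter and the dimmer probe followed each other only in part over the 20 arrays (r = 0.30, and 0.49 with slide means removed too).

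*Slc1a2* encodes a glutamate transporter (GLT-1) that pericentral hepatocytes share with astrocytes, and it brings in the glutamate that glutamine synthetase uses. The controls lay close together at 4.63, 4.56, 4.37, 4.42 and 4.44. The lowest dose gave 5.17, 4.58, 5.18, 4.84 and 4.54 and the middle dose 4.61, 4.54, 4.67, 5.08 and 5.00. The highest dose gave 4.84, 4.94, 5.16, 4.35 and 5.02. Of the 5 mice a group, 3, 3 and 4 exceeded all controls, and 1 at 75 mg/kg/day lay below them all. The log2 fold changes were 0.38, 0.29 and 0.38 (SE 0.16, unadjusted p = 0.0246, 0.0722 and 0.0253), but the adjusted p-values from limma were 0.636, 0.763 and 0.372. The dimmer probe, for another RefSeq transcript of the gene, gave 0.24, 0.39 and 0.18 (SE 0.22), and its controls spread over a wider range, from 2.96 to 4.22. With the scanner's own processed signals the 50 mg/kg/day value of the brighter probe was -0.010.

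*Rhbg* encodes an ammonium transporter of the Rhesus family. In the main processing it had the largest fold changes of the 9 genes at 25 and 50 mg/kg/day. This did not hold with scanner processed signals or on the liver channel alone. Its controls spread widely, at 2.96, 3.94, 3.52, 2.63 and 3.25. The values were 4.14, 3.76, 3.67, 3.46 and 4.01 at the lowest dose, and at the middle dose they stood in a narrow band, 3.80, 3.72, 3.90, 4.03 and 4.06. At 75 mg/kg/day they were 3.79, 3.92, 3.23, 3.58 and 3.80. Control replicate 2, at 3.94, was inside or above the range of each exposed group, and the other 4 controls lay below all 5 mice of the middle dose. The log2 fold changes were 0.55 (95% interval 0.15 to 0.95), 0.64 (0.24 to 1.04) and 0.41 (0.01 to 0.81), with SE 0.19 and unadjusted p of 0.00957, 0.00323 and 0.0473. None passed the adjustment over all probes (adjusted p = 0.636, 0.628 and 0.441 from limma). Without control replicate 4, the lowest *Rhbg* control, they were 0.39, 0.48 and 0.25. Without control replicate 2, the highest, they were 0.72, 0.81 and 0.58. With scanner processed signals they were 0.42, 0.19 and 0.33, and those of *Lgr5* were larger at each dose. On the liver channel alone the *Rhbg* values were 0.35, 0.59 and 0.21, and those of *Cyp2e1* were larger at each dose. The array of control replicate 4 also had the highest share of probes well above background in the liver channel, 67.5%. The other controls had 51.9% to 54.3%, and the part of that share in the *Rhbg* values was not tested.

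*Oat* encodes ornithine aminotransferase, which links ornithine to glutamate and lies in the same cells as glutamine synthetase. The controls had 2.75, 2.13, 1.70, 2.00 and 1.72. The groups at 25 and 50 mg/kg/day had 2.51, 1.93, 1.82, 2.70 and 2.35, and 1.89, 2.16, 2.45, 2.95 and 2.77. At 75 mg/kg/day the values were 2.40, 1.80, 1.61, 1.49 and 1.57, and 3 of these 5 mice lay below all controls. The log2 fold changes were 0.20, 0.39 and -0.29 (SE 0.23, adjusted p = 0.845, 0.781 and 0.682 from limma), so that *Oat* alone among the 4 ammonia and glutamine genes had a mean below the controls at the highest dose. The step from 50 to 75 mg/kg/day was -0.67 (95% interval -1.16 to -0.19). It was the single member step with an unadjusted p below 0.05 (unadjusted p = 0.00913, adjusted p = 0.706 from limma), where 3.6% of all probes were lower by that measure and 0% were called. Between 25 and 50 mg/kg/day 0 of 12 member probes had an unadjusted p below 0.05, where 8.29% of all probes had one and 0% were called.

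The metabolic genes *Cyp2e1* and *Gulo* follow. *Cyp2e1* encodes the cytochrome P450 that oxidizes ethanol and acetaminophen. Control values were 6.06, 4.81, 5.00, 4.95 and 5.53. With exposure they were 6.25, 5.18, 5.69, 5.19 and 5.53 at the lowest dose, 5.68, 5.14, 5.09, 5.84 and 5.58 at the middle dose and 5.74, 5.46, 5.66, 5.49 and 5.87 at the highest. Only 1 exposed mouse, at 25 mg/kg/day, exceeded all controls, and the spread was smallest at the highest dose (SD 0.17, against 0.52 in the controls, n = 5 each). The log2 fold changes were 0.30, 0.19 and 0.37 (SE 0.23, adjusted p = 0.754, 0.904 and 0.554 from limma). On the liver channel alone they were 0.70, 0.65 and 0.33.

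*Gulo* encodes L-gulonolactone oxidase, which completes vitamin C synthesis in mice. Its brighter probe ranged from 4.53 to 5.90 in the controls and from 5.34 to 6.33 at 75 mg/kg/day, with log2 fold changes of 0.27, 0.13 and 0.42 (SE 0.24, adjusted p = 0.787, 0.946 and 0.514 from limma). After the dose means were removed, r between the brighter and the dimmer probe was 0.43, and -0.24 with slide means removed too. The dimmer *Gulo* probe had the tighter controls, 4.48, 4.54, 4.48, 4.25 and 4.54. It had 5.01, 4.66, 4.67, 4.06 and 4.67 at the lowest dose, 4.82, 4.52, 4.81, 4.92 and 4.79 at the middle dose and 4.84, 4.59, 4.79, 4.87 and 4.83 at the highest. By this probe 4, 4 and 5 of the 5 mice a group exceeded every control. This was the single member probe whose exposed and control groups did not overlap, at 75 mg/kg/day, where 0.937% of all probes had 5 exposed mice above all controls. At 25 and 50 mg/kg/day the count was 0 of 12, where the groups of 1.22% and 0.823% of all probes did not overlap in either direction. In the order of the doses its log2 fold changes were 0.16, 0.31 and 0.33 (SE 0.13, unadjusted p = 0.234, 0.0242 and 0.0192, adjusted p = 0.770, 0.708 and 0.348 from limma). With scanner processed signals they were 0.073, 0.025 and 0.27, and on the liver channel alone -0.027, 0.59 and 0.087. The linear trend of this probe was 0.11 per 25 mg/kg/day (SE 0.04, unadjusted p = 0.00873, adjusted p = 0.390 from limma). Of the 12 member probes 0 had a trend with an adjusted p below 0.05, where 0.157% of all probes had one, and 1 had an unadjusted p below 0.05, where 8.58% did.

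The Wnt genes come last. *Lgr5* encodes a receptor for R-spondins. Its log2 ratio ranged from 1.94 to 3.03 in the controls and from 2.30 to 2.73, 2.26 to 3.21 and 2.10 to 2.88 at the 3 doses. The log2 fold changes were 0.27, 0.44 and 0.23 (SE 0.20, unadjusted p = 0.202, 0.0407 and 0.261, adjusted p = 0.751, 0.727 and 0.704 from limma). The liver channel was well above background on 20 of 20 arrays, whereas the reference channel was so on 2 of 20, and on the liver channel alone the values were 0.03, 0.30 and 0.03. With scanner processed signals they were larger than in the main processing, at 0.88, 0.76 and 0.62 (SE 0.44, adjusted p = 0.711, 0.752 and 0.623 from limma).

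*Axin2* encodes the scaffold that targets beta-catenin for degradation and is itself a beta-catenin target. Its probe was dim, with the liver channel well above background on 10 of 20 arrays (2, 3, 3 and 2 of 5 from the controls to the highest dose). Controls had 0.04, 0.85, 0.56, 0.05 and -0.06. Exposed mice had 0.58, 0.64, 0.29, 0.09 and 0.34 at the lowest dose, -0.13, 0.61, 0.49, 0.56 and -0.09 at the middle dose and -0.06, -0.01, 0.08, 0.62 and 0.23 at the highest. Each group held mice near 0 and mice above 0.5, and the log2 fold changes were 0.10, -0.0019 and -0.12 (SE 0.19, adjusted p = 0.916, 0.999 and 0.863 from limma). *Tbx3*, a T-box repressor and beta-catenin target, ranged from 2.76 to 3.53 in the controls and from 2.40 to 3.74, 1.99 to 3.50 and 2.46 to 3.34 at the 3 doses. Its log2 fold changes were 0.13, -0.25 and -0.07 (SE 0.27, adjusted p = 0.927, 0.895 and 0.951 from limma). The Wnt genes thus held both directions, and their intervals at 75 mg/kg/day ran from -0.19 to 0.65 for *Lgr5*, from -0.51 to 0.28 for *Axin2* and from -0.64 to 0.50 for *Tbx3*.

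**Figure D2:**
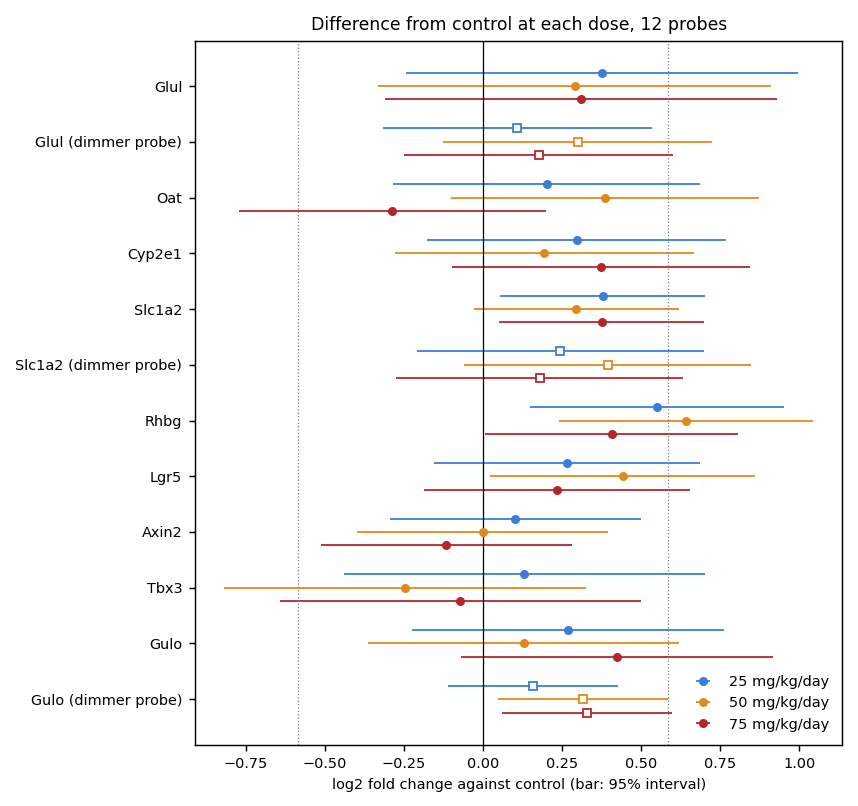
Log2 fold change against the controls (x axis) with its 95% interval for each of the 12 probes at 25, 50 and 75 mg/kg/day, as fitted by limma. Filled circles are the probe that stands for the gene, open squares the dimmer probe, and dotted lines mark a 1.5-fold change. Most points lie right of 0, and the *Oat*, *Axin2* and *Tbx3* points at 75 mg/kg/day lie left of it.

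The same comparison was made for hepatocyte genes of other kinds, to ask whether pericentral genes moved apart from the rest of the hepatocyte RNA. The 9 pericentral genes had median log2 fold changes of 0.27, 0.29 and 0.31, with 9, 7 and 6 of 9 positive. A further 13 pericentral genes, such as drug and bile acid enzymes, had medians of 0.26, 0.23 and 0.32, and all 13 were positive at each dose with 0 called. Periportal genes, which do the urea cycle and amino acid breakdown at the other end of the lobule, had medians of 0.25, 0.26 and 0.36 (11, 12 and 12 of 12 positive, 0 called). The 6 hepatocyte markers of any zone, such as *Alb* and *Apoa1*, had medians of 0.35, 0.34 and 0.41, all positive, with 0 called. The difference between pericentral and periportal genes was not tested. The mean log2 ratio of the 6 hepatocyte markers ranged from 3.84 to 5.17 over the control mice and from 4.64 to 5.19, 4.72 to 5.18 and 4.69 to 5.20 over the 3 exposed groups, and their part in the values of the 9 genes was not tested.

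Within the further pericentral genes the largest fold change at 75 mg/kg/day was that of *Cyp2c29*, a drug-metabolizing cytochrome P450, at 0.55 (SE 0.17, adjusted p = 0.239 from limma), and the smallest that of *Ahr*, the aryl hydrocarbon receptor, at 0.15 (SE 0.22, adjusted p = 0.849). *Cyp27a1*, a bile acid synthesis enzyme singled out after its values were seen, was the one gene of the list whose 5 mice at 75 mg/kg/day all exceeded the controls (0.30, SE 0.12, adjusted p = 0.353). By that measure 0.937% of all probes were higher. *Cyp1a2*, an aryl hydrocarbon receptor target that is also pericentral, had 0.31 (adjusted p = 0.470). At the periportal end *Ass1*, argininosuccinate synthase of the urea cycle, had the largest value, 0.73 (SE 0.21, adjusted p = 0.194), and *Otc*, ornithine transcarbamylase, the smallest, 0.0088 (SE 0.12, adjusted p = 0.988). Without control replicate 1, *Cyp2c29* at 0.73 and *Ass1* at 0.93 passed the threshold (adjusted p = 0.0327 and 0.0343). Without any other single array neither passed, and the lowest values were 0.40 and 0.55. Under the other ways of processing neither passed (smallest adjusted p = 0.143 and 0.06 from limma).

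**Figure D3:**
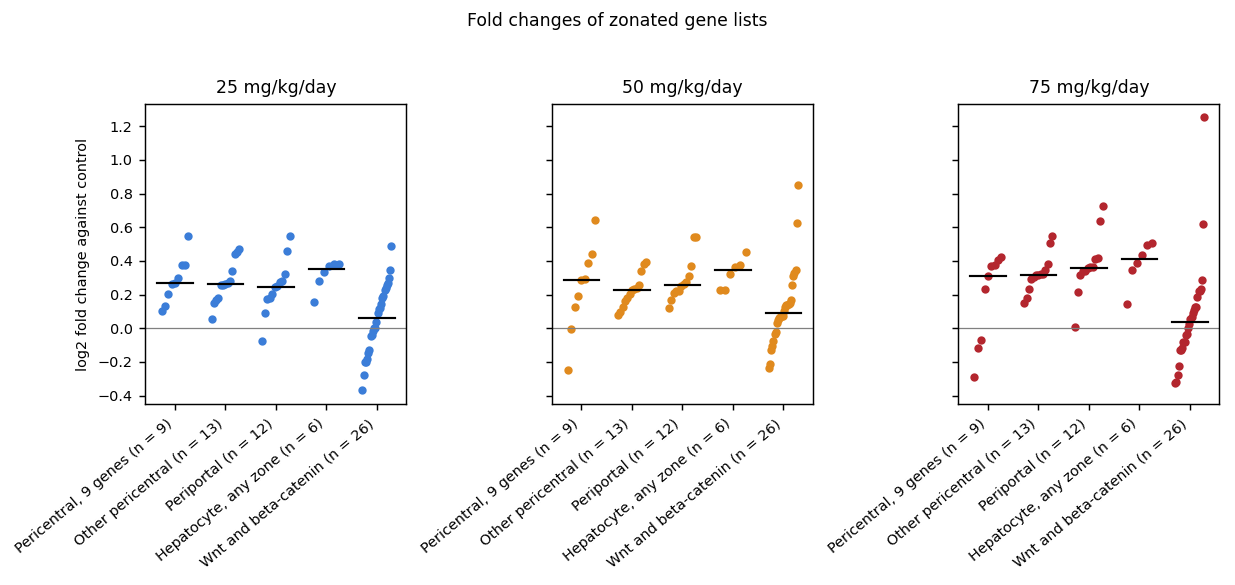
Log2 fold change against the controls (y axis) of each gene in 5 lists at 25, 50 and 75 mg/kg/day, 1 point per gene, with a black line at the list median. Medians of the 4 hepatocyte lists lie between 0.23 and 0.41, and that of the Wnt list between 0.04 and 0.09.

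The pathways around the members were followed through 3 further lists. Of 29 Wnt and beta-catenin pathway genes, 26 were above the negative controls, and their medians were 0.06, 0.09 and 0.04. A single one was called, where 0.135% of all probes were called at 75 mg/kg/day. It was *Ccnd1*, cyclin D1 of the G1 phase, which rose at 75 mg/kg/day by 1.25 on the log2 scale (SE 0.18, adjusted p = 0.00215 from limma). All 5 mice exceeded the controls, where 0.937% of all probes were higher by that measure. With the controls and this dose fitted alone the adjusted p of *Ccnd1* was 0.0848. The lowest value at that dose was -0.32 for *Lrp5*, a Wnt co-receptor (SE 0.28, adjusted p = 0.700). Of 12 genes for glutamine, glutamate and ornithine handling 0 were called, with medians of 0.18, 0.26 and 0.29, and the extremes at 75 mg/kg/day were *Aldh4a1* of proline breakdown at 0.44 (adjusted p = 0.516) and *Odc1*, ornithine decarboxylase, at -0.28 (adjusted p = 0.455). Of 7 ascorbate and glucuronate genes 0 were called, with medians of 0.14, 0.25 and 0.15. *Rgn*, the lactonase that acts just before GULO, was highest at 0.48 (adjusted p = 0.366), and *Slc23a2*, a vitamin C transporter, lowest at -0.22 (adjusted p = 0.567). Among markers of other liver cells, 2 genes were called at 75 mg/kg/day, where 0.135% of all probes were. They were *Marco* of Kupffer cells at 2.19 and *Lyve1* of sinusoidal endothelium at 2.23 (adjusted p = 0.00148 and 0.0189). With the controls and this dose fitted alone neither was called, with the same fold changes (adjusted p = 0.0563 and 0.0848). The *Lyve1* call was also lost with scanner processed signals (2.16, adjusted p = 0.105) and without control replicate 2 or without replicates 17, 18 or 20 of the highest dose (1.93 to 2.28, adjusted p = 0.0507 to 0.082). The other 5 Kupffer and 5 endothelial markers were not called, nor were any markers of stellate, bile duct, B, T, neutrophil or lung cells (0 at each dose), and their part in the members' values was not tested.

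The 20 arrays lay on 6 slides, 4 slides with 4 of these arrays and 2 with 2, and slide accounted for much of the spread of some member probes but not of others. Slide means held 71.8% of the variance of *Glul* over the 20 arrays, 77.9% of that of *Cyp2e1*, 72.1% of that of *Axin2*, 62.6% of that of *Gulo* and 53.3% of that of *Slc1a2*. Dose means held 8.84%, 13.9%, 6.71%, 15.9% and 31.4% of the same variances. A share of 26.3% for slides and 15.8% for doses is what the degrees of freedom alone would give. *Rhbg* stood the other way round, with 41.6% between doses and 13% between slides, and *Oat* had 32.6% and 19.3%. *Lgr5* had 20.8% and 19.2%, and *Tbx3* had 9.27% and 31%. Among the dimmer probes, that of *Slc1a2* had 15.2% between doses and 16.2% between slides. Those of *Glul* and *Gulo* had 10.9% and 34.8% between doses and 51% and 42.3% between slides. *Glul* averaged 5.25 on slide 3 and 4.18 on slide 6, and *Axin2*, by contrast, was lowest on slides 1 and 3 and highest on slides 5 and 6. Slide 6 held controls and 50 mg/kg/day mice only, while slides 4 and 5 held mice at 25 and 75 mg/kg/day and no controls. The comparisons of 25 and 75 mg/kg/day with the controls thus compared slides in part. *Cyp2e1* averaged 6.06 on slide 4, 5.33 on slide 5 and 5.01 on slide 6, and *Glul* 4.68, 4.27 and 4.18. The place of an array on its slide followed the dose, with all mice at 25 mg/kg/day on the second place and all at 75 mg/kg/day on the fourth. Apart from slide 6, where control replicate 2 lay on the second place and replicate 13 of the 50 mg/kg/day group on the fourth, each place held 1 dose, and the part of place in the values was not tested.

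**Figure D4:**
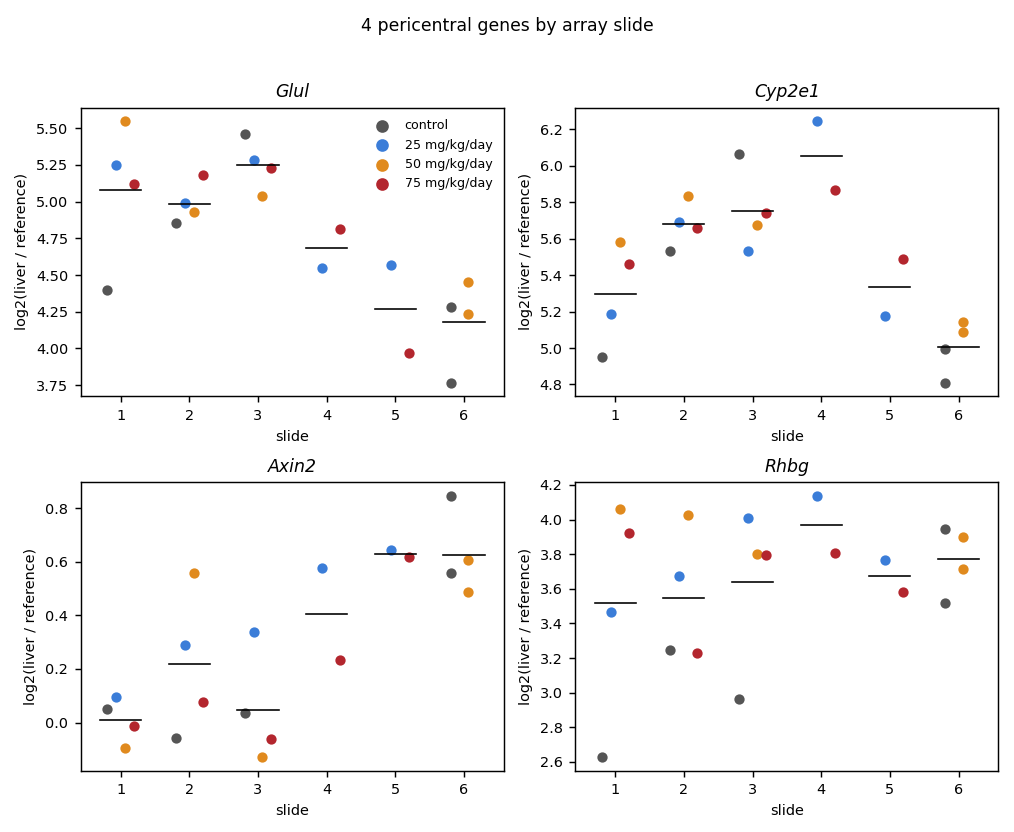
Log2 ratio of liver over reference (y axis) of *Glul*, *Cyp2e1*, *Axin2* and *Rhbg* by array slide (x axis), 1 point per mouse colored by dose, with a line at the slide mean. *Glul* and *Cyp2e1* are low on slide 6, where *Axin2* is high, while the *Rhbg* slide means lie closer together and its control mice on slides 1 to 3 lie low.

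Differences were then taken between exposed and control mice of the same slide. *Rhbg* was higher in exposed liver on 3 of 3 slides at 25 mg/kg/day (0.42 to 1.05), on 4 of 4 at 50 mg/kg/day (0.08 to 1.44) and on 2 of 3 at 75 mg/kg/day (-0.02 to 1.29). *Slc1a2* was higher on 2 of 3, 3 of 4 and 3 of 3 slides, and *Oat* was lower at 75 mg/kg/day on 3 of 3 slides (-0.35 to -0.12). *Glul* was higher on 2 of 3, 3 of 4 and 2 of 3 slides, with values from -0.42 to 1.15. Taking the 9 genes and 3 doses together, 23 of 27 differences were positive on slide 1 and 22 of 27 on slide 2, but 8 of 27 on slide 3 and 6 of 9 on slide 6. On slides 1, 2 and 3 every dose met a single control, replicates 4, 5 and 1 in that order. Differences on a slide share their controls. With slide as a block in the model, 0 member probes were called at any dose. The *Cyp2e1* value at 75 mg/kg/day went from 0.37 to 0.07 and that of *Gulo* from 0.42 to 0.13, while *Rhbg* stood at 0.62, 0.64 and 0.48 and *Slc1a2* at 0.37, 0.29 and 0.37 over the 3 doses (smallest adjusted p = 0.243 from limma).

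Covariation of the members between mice was measured with the dose means removed. Of 36 pairs, 2 passed a permutation test within dose groups after adjustment over the 36 pairs. The permutations did not keep arrays to their slides, so the p-values below do not allow for differences between slides. *Cyp2e1* and *Gulo* went together (r = 0.77, permutation p = 0.00018, adjusted p = 0.00324, and rho = 0.76, permutation p = 0.00024). Without the 2 arrays farthest from the *Cyp2e1* median r was 0.79. This pair rests on the brighter *Gulo* probe. Its r with the dimmer *Gulo* probe was 0.43, and -0.24 with slide means removed too. *Glul* and *Axin2* went in opposite directions (r = -0.84, permutation p = 4e-05, adjusted p = 0.00144, and rho = -0.77, permutation p = 0.00044). The r was -0.75 without the 2 farthest arrays and -0.43 with scanner processed signals. This second pair rests on the brighter *Glul* probe. That probe's r with the dimmer *Glul* probe was 0.30, and 0.49 with slide means removed too. The *Axin2* liver channel was well above background on only 10 of the 20 arrays. Both relations were weaker with slide means removed too, at r = 0.45 and -0.42, and 0 of 36 pairs then passed. Of the 36 correlations 25 were positive, and 32 with slide means removed.

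**Figure D5:**
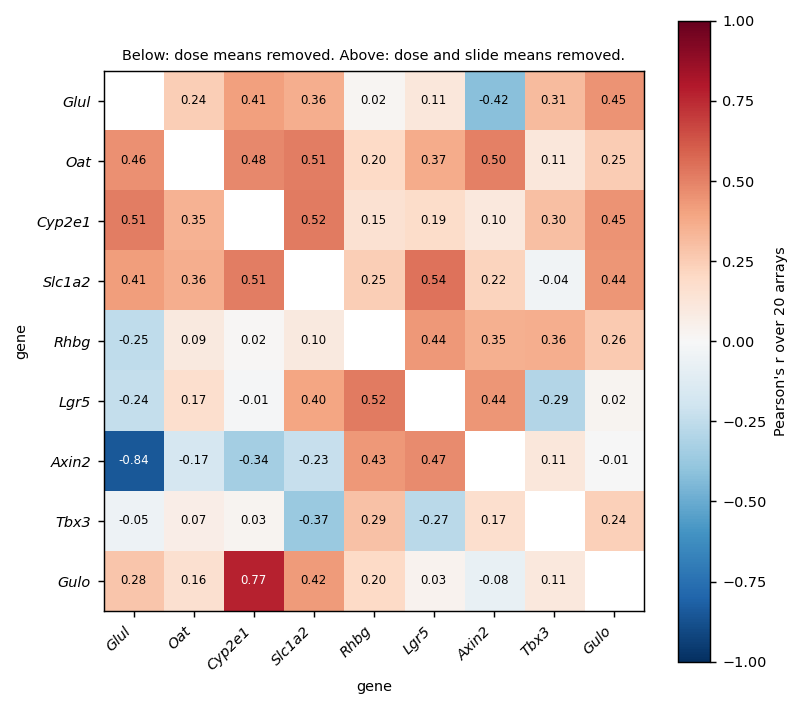
Pearson's r between each pair of the 9 genes over 20 arrays, with dose means removed (below the diagonal) and with dose and slide means removed (above it), on a color scale from -1 to 1. The *Cyp2e1* and *Gulo* cell and the *Glul* and *Axin2* cell stand out below the diagonal, at 0.77 and -0.84, and are 0.45 and -0.42 above it.

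*Glul* was lastly set against all other 12985 genes in the same way, as a description with no test, since the arrays share slides. Its brighter probe alone was used, and the r of that probe with the dimmer *Glul* probe was only 0.30. The genes most like the brighter probe were *Atf2* (r = 0.93), *Rps4x* (0.92), *Fastkd2* (0.92), *Golph3* (0.92) and *Dek* (0.92). The most opposed were *Ticam1* (-0.92), *Elp5* (-0.92), *Rhbdf2* (-0.91), *Cfap410* (-0.90) and *Fzd4* (-0.89). With slide means removed too, the former had r of 0.74 to 0.90 and the latter -0.83 to -0.67. In all, 212 genes had r above 0.8 and 143 below -0.8, and 34 and 22 did with slide means removed. The other pericentral members were not among the closest genes. *Cyp2e1* ranked 2237 of 12985 (r = 0.51), *Oat* 2746 (0.46) and *Slc1a2* 3160 (0.41), whereas *Rhbg* ranked 9284 (-0.25) and *Axin2* 12940.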

How the data were processed

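The scanner intensities deposited by the authors are median spot and local background brightness in both channels, extracted with Feature Extraction (10.1.1.1 per the file headers) and not normalized. The log2 ratios deposited by the authors are LOWESS normalized and correlated with those used here at r = 0.994 to 0.996. Their scale is log2 with liver over reference, and their column medians were -0.0399 to -0.0181. Marks of the software (other values deposited by the authors) gave spots well above background or outlying, and 0 spots were saturated.

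Here intensities were background corrected by normexp (offset 50) and normalized by loess within each of the 20 arrays, and spots of a probe were averaged (R 4.3.3, limma 3.58.1, figures with matplotlib 3.10.9). Presence followed the methods of the study: above the mean (trim 5%) plus 3 trimmed SDs of 153 negative control spots on 4 or more of 5 arrays of some group, which 27346 probes met. Symbols came from RefSeq accessions through a table for GRCm38.p6 and covered 23374 probes. One limma model over 20 arrays gave all contrasts, with p-values adjusted by Benjamini-Hochberg over the 27346 probes, and was tested on simulated data. The arrays number 5 per group, which limits the precision, and the median SD within a group was 0.217 on the log2 scale. The study removed 1 unnamed sample, and all 20 were kept here. The study's MAANOVA was not used here. Permutations of pairs numbered 100000.

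The members and gene lists were chosen with earlier results of these data known. Named from each further list were genes called at any dose and the highest and lowest at 75 mg/kg/day, and for *Glul* the 5 genes of highest and the 5 of lowest r. *Cyp27a1* and *Cyp1a2* were named outside this rule. Alternatives were no background correction, scanner processed signals, the authors' ratios, the liver channel alone, no presence filter, only probes well above background throughout, slide as fixed or random block, array weights, each dose fitted alone with the controls, the mean of a gene's probes, within-slide differences and leaving out each array. The series description gives 24 mg/kg for the lowest dose, and the labels' 25 mg/kg was used.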

Additional observations from a re-analysis of the deposited data

Results flagged for a closer look

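In a group of 5 mice, a value was marked when its gap to the nearest other mouse took up more than 0.71 of the group's range (Dixon's criterion), which chance does for about 5% of groups. Over 48 groups, 12 probes at 4 dose levels, 1 was marked. The dimmer *Gulo* probe was low in control replicate 4, at 4.25, where the next lowest control had 4.48 (gap over range 0.815). Without that array the log2 fold changes of this probe were 0.11, 0.26 and 0.28 at the 3 doses, against 0.16, 0.31 and 0.33 with it, and the adjusted p at 75 mg/kg/day was 0.557 from limma.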

How the results depend on the processing

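No member probe was called at any dose, between neighboring doses or by trend without any single array, or under any alternative where that test was run. No trend was fitted with slide as a random block, array weights, each dose alone or the mean of a gene's probes. Fitting each dose alone gave no step between neighboring doses, and the within-slide differences had no test. The smallest adjusted p for a member gene was 0.168 under the alternatives and 0.164 without an array, both by limma. Of 411 member fold changes under alternatives, 14 turned their direction, to values between -0.13 and 0.037. With scanner processed signals the value at 50 mg/kg/day was -0.010 for *Slc1a2* and -0.13 for its dimmer probe. With the liver channel alone it was -0.037 for *Axin2*, -0.0056 for the dimmer *Glul* probe and -0.027 for the dimmer *Gulo* probe at 25 mg/kg/day. With slide as a fixed block it was -0.0034 for *Cyp2e1*, -0.049 for *Tbx3*, -0.028 for *Gulo* and -0.082 for the dimmer *Glul* probe at 25 mg/kg/day, and -0.014 for the last at 75 mg/kg/day. With array weights *Tbx3* at 75 mg/kg/day was 0.0074. The mean of within-slide differences was -0.046 for *Cyp2e1* and -0.044 for *Tbx3* at 25 mg/kg/day and 0.037 for *Axin2* at 50 mg/kg/day. Of the other genes named, *Otc* turned to -0.24 at 75 mg/kg/day on the liver channel alone. The causes were not tested.

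Leaving out single arrays, *Axin2* ranged from -0.088 to 0.14 at 50 mg/kg/day and from -0.23 to 0.023 at 75 mg/kg/day, *Tbx3* from -0.014 to 0.32 at 25 mg/kg/day and from -0.17 to 0.053 at 75 mg/kg/day, *Gulo* from -0.061 to 0.29 at 50 mg/kg/day, *Ahr* from -0.022 to 0.26 and *Otc* from -0.086 to 0.11 at 75 mg/kg/day. The count of correlated pairs went from 2 to 0 with slide means removed, to 1 without the 2 farthest arrays and to 3 with scanner processed signals, and was 2 with the authors' ratios.

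*Axin2* and the reference channel of *Lgr5* lay near background, which limits both. No paired analysis was possible because the replicate numbers run from 1 to 20 and no number is shared by 2 groups. Arrays were matched by slide instead, as a block and in the within-slide differences above.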
